A study of Mus musculus with 6 samples.

Results

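The Hox genes of the 4 mouse clusters were followed in whole lungs of embryos in which forkhead factors of the Foxp1/2/4 subfamily were targeted in the lung endoderm. Members were the features whose only annotated symbol is a Hox gene, with 1 feature per gene, its brightest on average over all 6 arrays. This gave 37 Hox genes, 10 in HoxA and 9 each in HoxB, HoxC and HoxD, among 19946 genes tested. Hoxb8 had no feature of its own and is not analysed here as a member. Every member had 1 feature, so none had to be chosen among several.

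RNA was taken from lungs at E14.5, when the airways are branching, in 3 mutant and 3 control embryos on a mixed C57BL/6 and 129X1 background. Mutants carried Shh-cre, the recombinase expressed where Shh is active and hence in lung endoderm, with Foxp1flox/flox, a further pair of floxed alleles and Foxp4flox/flox. The label writes Foxp1 for that further pair, where the series title names Foxp1/2/4, and the design text calls the mutants DKO, so the sources do not settle how many of the 3 genes were floxed. Controls are labelled with Shh-Cre alone, so the recombinase is common to both groups. Each array measured a whole lung, with the mesenchyme, vessels and other tissue that Shh-Cre does not recombine, so fewer cells of a type and less RNA per cell cannot be told apart. The labels do not say whether the embryos shared a litter, and p-values measure the spread between these samples.

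Hox genes encode homeodomain transcription factors that lie side by side in clusters, and the order of the genes in a cluster matches the order of their expression along the body axis. Genes with low paralogue numbers, at the 3′ end, are active toward the head, and genes with high numbers, at the 5′ end, toward the tail, the urogenital tract, the hindgut and the ends of the limbs. In the embryonic lung, Hox genes of low and middle number from HoxA and HoxB are active, mainly in mesenchyme, and mouse Hoxa5 is needed there for airway and alveolar development.

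Values are log2 RMA signals, as deposited, and differences are mutant minus control, each followed by its standard error (SE) from limma. A gene rose or fell where limma's p, adjusted by Benjamini-Hochberg over all genes tested, was under 0.05. Of the targeted genes, Foxp2 (-0.95 ± 0.05, adjusted p = 4.75e-05) and Foxp4 (-0.64 ± 0.10, adjusted p = 0.00591) fell and Foxp1 was at -0.31 ± 0.08 (adjusted p = 0.0661), with all 3 mutants below all 3 controls for each. The lowest correlation over all genes was 0.994 within mutants and 0.998 within controls. Judged by the Y-linked genes Eif2s3y, Kdm5d and Uty, 1 mutant and 1 control were male. Genes silent in one sex, these and Xist, read 4.15 to 5.77 on the arrays of that sex, over 14 values. That range is a rough guide to where absent transcripts lie on this scale.

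In mutant lungs 9 of the 37 Hox genes rose (24.3%) and 0 fell, while 3.84% of all genes tested rose and 3.83% fell. At an unadjusted p under 0.05, limma had 14 Hox genes higher and 0 lower, against 10.6% of all genes higher and 9.28% lower. The members that rose were Hoxa2, Hoxa9, Hoxa10, Hoxa11 and Hoxa13 of HoxA, and Hoxb2, Hoxb3, Hoxb4 and Hoxb6 of HoxB. All 3 mutants lay above all 3 controls for 15 of the 37 members, against 13.4% of all genes, and below them for 0 members, against 12.6% of all genes. The median difference was 0.05 over the members and -0.01 over all genes. The counts rest on few arrays: the number of Hox genes that rose was 5 without control 2 and 4 without control 3, and between 6 and 9 without any other single array.

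**Figure D1:**
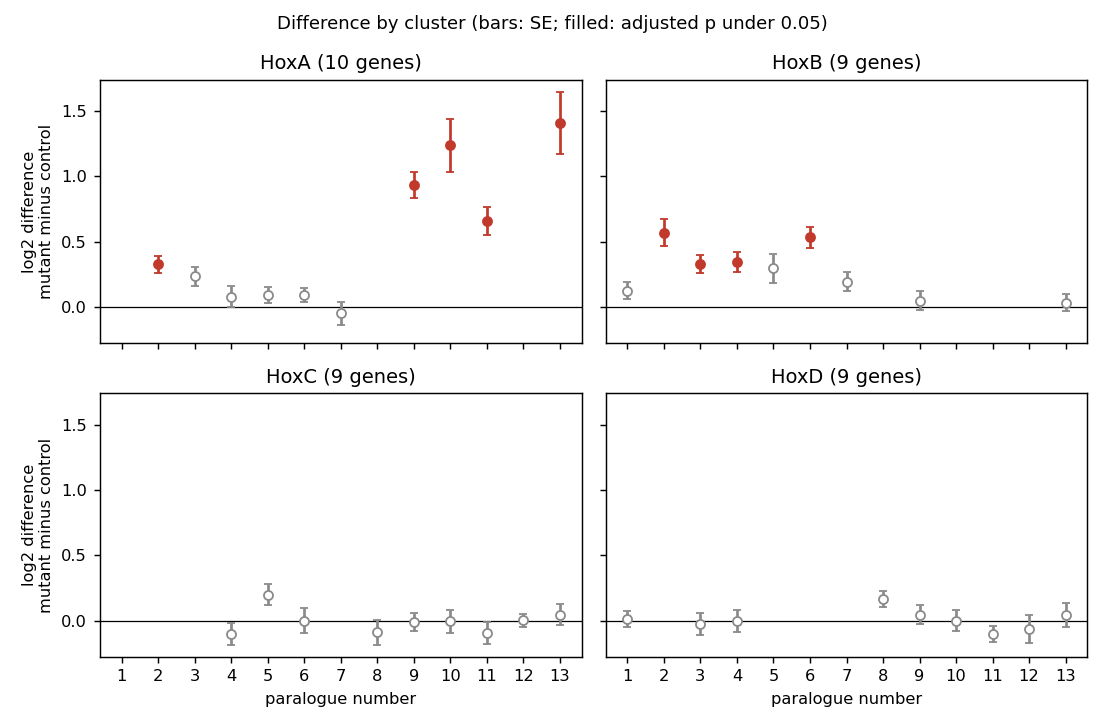
Log2 difference of each Hox gene, mutant minus control, against its paralogue number, 1 panel per cluster, with bars for the SE of the limma fit (n = 3 arrays per group) and filled points for an adjusted p under 0.05. The 4 HoxA genes of groups 9 to 13 lie between 0.66 and 1.41, and the 18 HoxC and HoxD genes between -0.10 and 0.20.

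The promoters of the 4 posterior HoxA genes are shown because these genes changed most and are all the Hox genes measured at the 5′ end of the cluster. The windows reach from 250 bases before to 50 after the annotated start, from RefSeq, build GRCm38.p6, all on the minus strand of chromosome 6. They lie at chr6:52227321-52227620 for Hoxa9, chr6:52240805-52241104 for Hoxa10 (the outer of its 2 annotated starts), chr6:52245761-52246060 for Hoxa11 and chr6:52260831-52261130 for Hoxa13. Capitals mark CpG dinucleotides, the sites of DNA methylation, which are dense in promoters of the CpG island type.
Hoxa9: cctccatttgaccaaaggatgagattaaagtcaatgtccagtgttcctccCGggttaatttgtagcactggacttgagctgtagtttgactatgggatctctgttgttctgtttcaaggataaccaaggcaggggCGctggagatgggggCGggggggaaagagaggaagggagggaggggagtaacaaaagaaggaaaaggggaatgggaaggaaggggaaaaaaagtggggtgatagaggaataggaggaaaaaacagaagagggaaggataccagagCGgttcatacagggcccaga
Hoxa10: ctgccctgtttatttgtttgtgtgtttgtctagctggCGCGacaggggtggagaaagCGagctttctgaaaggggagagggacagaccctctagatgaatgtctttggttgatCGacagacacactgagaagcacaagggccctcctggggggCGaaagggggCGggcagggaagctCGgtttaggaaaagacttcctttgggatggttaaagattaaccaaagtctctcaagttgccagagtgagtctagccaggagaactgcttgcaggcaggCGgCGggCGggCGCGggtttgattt
Hoxa11: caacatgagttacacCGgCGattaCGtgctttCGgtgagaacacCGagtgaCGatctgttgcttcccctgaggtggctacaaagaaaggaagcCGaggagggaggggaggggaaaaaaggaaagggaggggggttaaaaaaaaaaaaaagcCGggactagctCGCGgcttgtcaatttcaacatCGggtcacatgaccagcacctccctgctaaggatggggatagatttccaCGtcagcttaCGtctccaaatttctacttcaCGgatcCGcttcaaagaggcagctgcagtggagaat
Hoxa13: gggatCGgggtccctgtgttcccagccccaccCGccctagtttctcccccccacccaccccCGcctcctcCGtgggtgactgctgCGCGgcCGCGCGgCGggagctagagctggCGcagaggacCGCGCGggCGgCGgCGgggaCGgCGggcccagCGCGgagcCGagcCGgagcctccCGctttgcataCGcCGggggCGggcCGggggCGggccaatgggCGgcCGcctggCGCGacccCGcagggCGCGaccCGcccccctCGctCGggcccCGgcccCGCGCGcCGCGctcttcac

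These 4 windows do not look alike. They hold 4 CpG in Hoxa9, 12 in Hoxa10, 15 in Hoxa11 and 45 in Hoxa13, where the median over all 32851 windows of the table was 7. Over the 23 windows of Hox members the median was 15, with 14 for members that rose and 20 for members that did not pass. The G and C content of the 4 windows was 49.7%, 54.3%, 51.0% and 81.0% in that order. None of the 4 holds the exact letters TGTTTAC, the only forkhead form searched, on either strand, nor does any of the 23 windows that matched 21 Hox members. Only 3.65% of all windows hold these letters, so their absence from so few Hox windows says little. Forms that differ by a base were not searched, so the search does not show that these windows lack forkhead sites. The Hox-Pbx motif TGATTNAT, bound in background knowledge by Hox proteins with their Pbx partners, was found in 2 of the 23 Hox windows, those of Hoxa2 and of 1 start of Hoxd11, against 3.22% of all windows. The homeodomain motif TAATTA was found in 2 of them, both of Hoxd11, against 5.29% of all windows. Both strands were searched, the motifs can share bases with one another, and a match is a description of these letters and not of binding.

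The largest differences were those of the posterior HoxA genes, which in background knowledge pattern the reproductive tract, the limbs and the hindgut. Hoxa13, a gene of digits, hindgut and genital tubercle, read 6.76, 7.74 and 7.60 in mutants 1 to 3, against 6.19, 5.81 and 5.88 in controls 1 to 3. Mutant 1 was the lowest of the mutants and control 1 the highest of the controls, and the groups did not overlap. The difference was 1.41 ± 0.24 or 2.66-fold (adjusted p = 0.0103), and without control 3 the adjusted p was 0.0528.

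Hoxa10, known for its part in the uterus and the lumbar vertebrae, read 7.30, 8.25 and 7.74 in mutants, against 6.60, 6.51 and 6.46 in controls. Mutant 2 stood highest and the controls lay close together, with an SD of 0.47 in mutants and 0.07 in controls. The difference was 1.24 ± 0.20 or 2.36-fold (adjusted p = 0.00875).

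Hoxa9, a regulator of blood progenitors as well as of the axial skeleton, read 6.78, 7.08 and 7.10 in mutants, against 6.17, 5.94 and 6.07 in controls. Its groups did not overlap and its adjusted p was the lowest among the members, at 0.00122 for a difference of 0.93 ± 0.10 or 1.91-fold. Hoxa11, needed in kidney, forearm and uterus, read 6.28, 6.65 and 6.55 in mutants, against 5.96, 5.71 and 5.84 in controls. The difference was 0.66 ± 0.11 or 1.57-fold (adjusted p = 0.00846). Mutant 1 was the lowest mutant for each of these 4 genes, and all 4 lay above every control in all 3 mutants. Taken as the median of the 4 genes relative to the control means, mutants 1 to 3 were at 0.75, 1.37 and 1.13 log2 units, and controls 1 to 3 at 0.11, -0.12 and -0.03.

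The control means of these genes, 5.84 to 6.53, lay above the range of silent genes and below the lowest array median of 6.70. That range rests on 14 values, and Hoxa11 in control 2, at 5.71, lay within it. The values therefore do not show that each of these genes was expressed in control lungs.

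**Figure D2:**
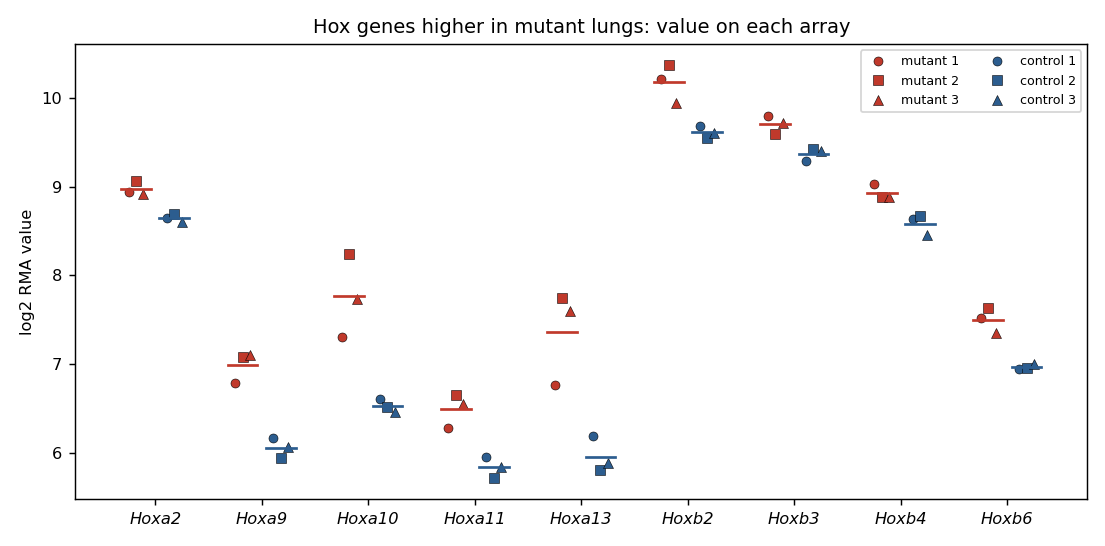
Log2 RMA value of the 9 Hox genes that rose, on each array, with mutants in red to the left of controls in blue and a line at each group mean (n = 3). No mutant value lies below a control value of the same gene, and mutant 1 is the lowest mutant for Hoxa9, Hoxa10, Hoxa11 and Hoxa13.

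The HoxA genes of groups 4 to 7, between the ends of the cluster, did not pass the test. Hoxa5, the member with a known role in lung mesenchyme, read 10.47, 10.56 and 10.46 in mutants, against 10.47, 10.41 and 10.34 in controls. The groups overlapped and the difference was 0.09 ± 0.06 (adjusted p = 0.508). Hoxa4 (0.08), Hoxa6 (0.09) and Hoxa7 (-0.05) had adjusted p from 0.446 to 0.835, with 0 of these 4 genes called by limma at an unadjusted p under 0.05 in either direction. Hoxa3, a gene of pharyngeal arch and thymus development, was at 0.24 ± 0.07 (adjusted p = 0.106), with all mutants above all controls.

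At the 3′ end, Hoxa2, which sets the identity of the second pharyngeal arch, rose by a smaller amount. It read 8.94, 9.07 and 8.91 in mutants, against 8.65, 8.69 and 8.603 in controls. The groups did not overlap, and the difference was 0.33 ± 0.06 or 1.25-fold (adjusted p = 0.0181). Its adjusted p was 0.0735, 0.0602 and 0.0923 without control 1, control 2 and control 3.

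In HoxB, Hoxb2, Hoxb3, Hoxb4 and Hoxb6 rose, with differences of 0.33 to 0.57. Hoxb2, a gene of the hindbrain and pharyngeal arches, read 10.22, 10.37 and 9.95 in mutants, against 9.68, 9.55 and 9.61 in controls. Mutant 3 was the lowest mutant and still above every control. The difference was 0.57 ± 0.10 or 1.48-fold (adjusted p = 0.0152), and the adjusted p was 0.0708 without control 2 and 0.0685 without control 3.

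Hoxb6, a gene of lateral plate mesoderm and limb, read 7.52, 7.64 and 7.35 in mutants, against 6.94, 6.96 and 7.004 in controls. Mutant 3 was again the lowest mutant, and the controls differed little among themselves (SD 0.03). The difference was 0.53 ± 0.08 or 1.45-fold (adjusted p = 0.00577), and it passed under each array left out.

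Hoxb3, which acts in the pharyngeal endoderm and its thyroid and thymus derivatives, read 9.80, 9.60 and 9.71 in mutants, against 9.29, 9.43 and 9.40 in controls. Hoxb4, studied in blood stem cells, read 9.03, 8.88 and 8.88 in mutants, against 8.63, 8.67 and 8.45 in controls. In both genes mutant 1 was the highest and no value overlapped between the groups. The differences were 0.33 ± 0.07 (adjusted p = 0.0296) for Hoxb3 and 0.35 ± 0.08 (adjusted p = 0.0332) for Hoxb4. Both passed without mutant 2 and missed the threshold without mutant 1, mutant 3, control 1, control 2 or control 3, with adjusted p from 0.0659 to 0.119 for Hoxb3 and from 0.0651 to 0.119 for Hoxb4.

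Hoxb5, which acts in branching of the mouse airway, read 10.03, 10.43 and 10.07 in mutants, against 9.98, 9.84 and 9.82 in controls. Mutant 2 stood apart and the groups did not overlap, but the difference of 0.29 ± 0.11 did not pass (adjusted p = 0.171). Hoxb1 (0.12) and Hoxb7 (0.19) had adjusted p of 0.346 and 0.183. The posterior members Hoxb9 (0.05) and Hoxb13 (0.03) had adjusted p of 0.804 and 0.849, and their groups overlapped. All 9 HoxB differences were above 0, with a median of 0.29, where 9 of 10 HoxA differences were above 0 with a median of 0.28. Over all genes tested, 9577 of 19946 differences were above 0, with a median of -0.01. In HoxC 3 of 9 and in HoxD 5 of 9 were above 0.

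**Figure D3:**
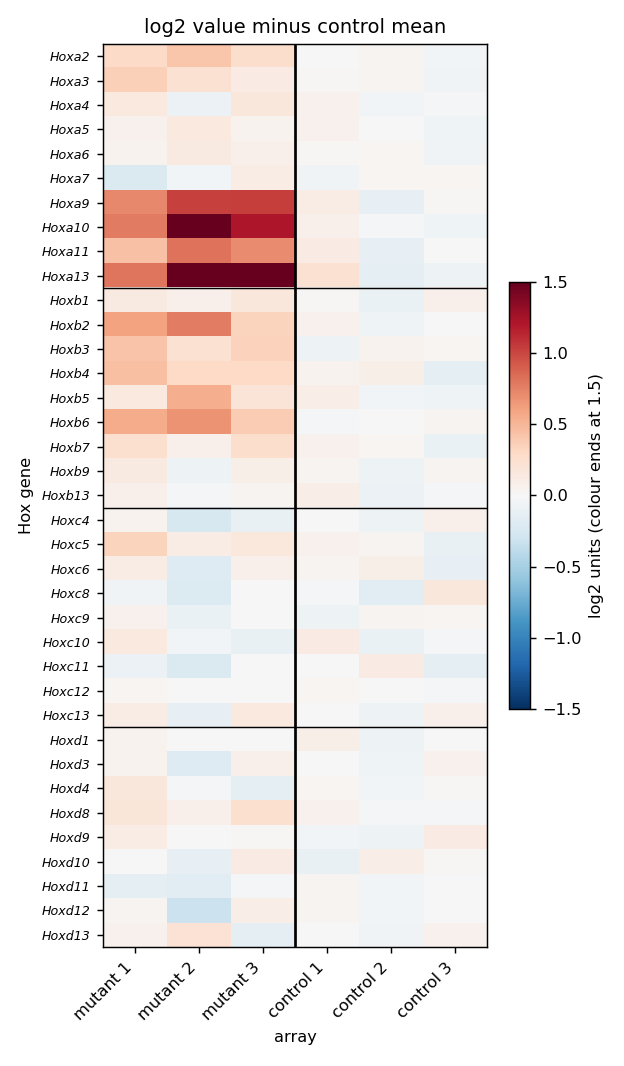
Log2 value of each Hox gene minus its mean over the 3 controls, by array, with mutants in the left columns and controls in the right ones, clusters divided by lines and colour ending at 1.5 log2 units. Hoxa9 to Hoxa13 and Hoxb2 to Hoxb6 are higher on all 3 mutant arrays, and the HoxC and HoxD rows show no common direction.

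None of the 18 HoxC and HoxD genes rose or fell in the limma fit, and at an unadjusted p under 0.05 2 were higher and 0 lower, a share near the 10.6% of all genes that were higher by that measure. Those 2 were Hoxc5 and Hoxd8, which are given as values only. Hoxc5 read 5.84, 5.62 and 5.67 in mutants, against 5.58, 5.55 and 5.41 in controls, a difference of 0.20 ± 0.08 (adjusted p = 0.207). Hoxd8, chosen after its value was seen, was at 0.17 ± 0.06 (adjusted p = 0.19). In both genes the groups did not overlap. The remaining members of these clusters lay between -0.10 and 0.05, with SEs from 0.05 to 0.11, and their groups overlapped.

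The levels of these clusters limit what can be said of them. Control means of HoxC and HoxD members ran from 4.73 to 6.23, all below every array median. Both group means lay within the range of silent genes for 8 of 9 HoxC and 3 of 9 HoxD members. Dim features cannot fall far on this scale, so values that did not pass do not show that these genes were unchanged.

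The posterior paralogues of HoxA and HoxD were set against each other on the same arrays. In group 13 the change of Hoxa13 exceeded that of Hoxd13 by 1.36 ± 0.34, and in group 10 that of Hoxa10 exceeded that of Hoxd10 by 1.23 ± 0.33 (SE over arrays, n = 3 per group). The gap was 0.88 ± 0.16 between Hoxa9 and Hoxd9 and 0.76 ± 0.13 between Hoxa11 and Hoxd11. The gap between the paralogues was larger in all 3 mutants than in all 3 controls for each of the 4 pairs. A two-sided exact permutation test of each gap gave p = 0.1, the smallest that 3 against 3 arrays allow, and 0.1 adjusted over the 4 pairs. This test could not reach the threshold used for the genes, whatever the values, and it decides nothing about the pairs. The 4 HoxA genes were already known to separate the groups and the 4 HoxD genes to overlap, so the gaps largely restate those results.

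All genes tested were divided by control mean into 3 level classes of equal size, with limits at 6.19 and 8.51, and 8 Hox genes fell in the high class, 8 in the middle and 21 in the low class. In the high class 4 of 8 rose, namely Hoxa2, Hoxb2, Hoxb3 and Hoxb4, against 3.65% of all genes of that class. In the middle class 2 of 8 rose, Hoxa10 and Hoxb6, against 5.84% of all genes there. In the low class 3 of 21 rose, Hoxa9, Hoxa11 and Hoxa13, against 2.02%. The median difference was 0.31 in the Hox genes of the high class, 0.16 in the middle and 0.00 in the low class. With classes by the mean over all 6 arrays, 4 of 8, 4 of 9 and 1 of 20 rose, from high to low. Of all genes in those classes 4.24%, 6.03% and 1.23% rose, in the same order.

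**Figure D4:**
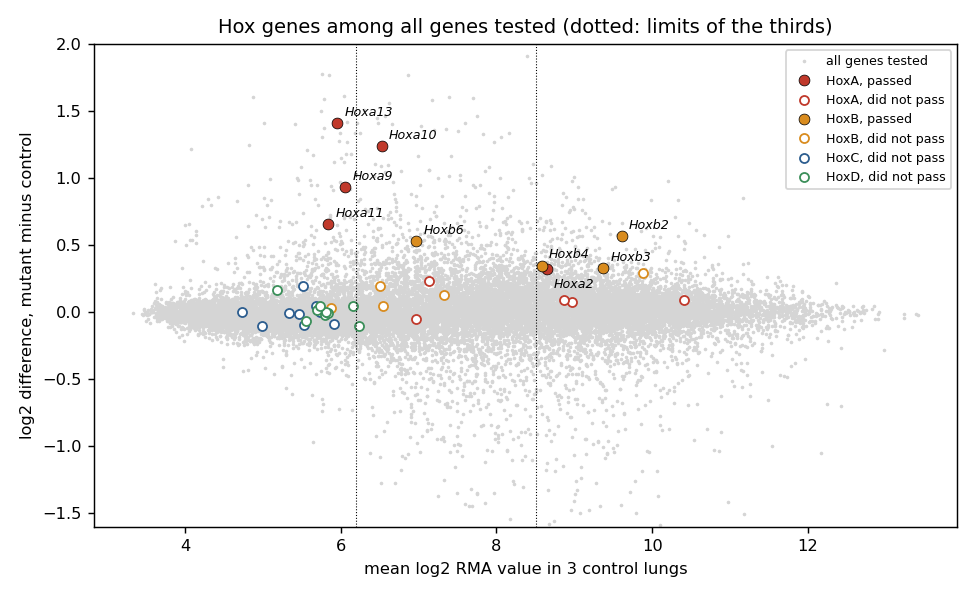
Log2 difference, mutant minus control, against the mean log2 value in the 3 controls for the Hox genes, coloured by cluster, over all 19946 genes in grey, with dotted lines at 6.19 and 8.51 between the level classes and genes beyond the vertical range not drawn. The posterior HoxA genes stand high at the dim end, and Hoxb2, Hoxb3, Hoxb4 and Hoxa2 at the bright end.

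By paralogue number, 3 of 7 members of groups 1 to 3 rose, with a median difference of 0.24, 2 of 14 of groups 4 to 8, with a median of 0.09, and 4 of 16 of groups 9 to 13, with a median of 0.04. Of all genes tested, 3.84% rose. Group 2 was the one in which every measured member rose, namely Hoxa2 and Hoxb2. In groups 9 to 13 the members that rose were all in HoxA, where 4 of 4 rose, and 0 of 2 rose in HoxB, 0 of 5 in HoxC and 0 of 5 in HoxD. In groups 4 to 8, 2 of 4 HoxB and 0 of 4 HoxA members rose. The differences between these classes were not tested, since genes are not replicates.

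Other transcripts lie within the clusters. Among the 10 other genes measured between the outermost Hox genes, 2 rose and 0 fell, where 3.84% of all genes rose and 3.83% fell. One was the microRNA gene Mir10a, next to Hoxb4. Its feature read 4.67, 4.66 and 4.62 in mutants, against 4.12, 4.21 and 4.07 in controls, without overlap, a difference of 0.52 ± 0.06 (adjusted p = 0.00175). Both group means lay below the upper end of the silent range, so this feature was not shown to be above background in either group. The other, Hoxaas2, an antisense transcript between Hoxa2 and Hoxa3 that was chosen after its value was seen, was at 0.50 ± 0.10 (adjusted p = 0.0213), with adjusted p of 0.0621, 0.0757 and 0.0997 without control 1, control 2 and control 3. Mir10b of HoxD was at 0.03, and Mir196b, between Hoxa9 and Hoxa10, at 0.05, with adjusted p of 0.81 and 0.823, both at the level of silent genes.

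The mature products of the Mir10 genes are given because their genes lie in HoxB and HoxD and their features read differently. They are from RefSeq, build GRCm38.p6, with the seed, bases 2 to 8, in capitals, at chr11:96317186-96317208 and chr2:74726074-74726096, both on the plus strand. The array values are of the gene's feature near the floor and not of the mature form.
miR-10a-5p: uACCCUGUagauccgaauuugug
miR-10b-5p: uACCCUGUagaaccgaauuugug

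The pair shares its seed and differs by 1 of 23 bases, U12A counted from 1 at the 5′ end, with the base of miR-10a-5p first. In background knowledge, miR-10 microRNAs are transcribed with the Hox genes around them and target Hox transcripts among others.

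Outside the clusters, 3 of the 24 nearest measured genes rose and 0 fell, taking 3 genes on each side of each cluster. Over all genes tested 3.84% rose and 3.83% fell. Skap1, an adaptor protein gene of T cells that lies beyond the Hoxb1 end of HoxB, read 7.05, 7.32 and 7.09 in mutants, against 5.65, 5.88 and 5.81 in controls. The groups lay far apart, with a difference of 1.37 ± 0.09 or 2.59-fold (adjusted p = 0.00011). Gm11529, between Hoxb1 and Skap1, was at -0.01 and Hoxb1 itself at 0.12.

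At HoxA, the neighbours next to Hoxa13 were Hottip (-0.04), the non-coding RNA of the 5′ end, and the homeobox gene Evx1 (0.14), with adjusted p of 0.826 and 0.205. Hottip, like Mir196b, read within the range of silent genes, so its value does not show that it was unchanged. Beyond them Hibadh, a valine breakdown enzyme, rose by 0.27 (adjusted p = 0.0252), and on the other side Skap2 rose by 0.25 (adjusted p = 0.0375). Hibadh had adjusted p from 0.0641 to 0.119 without mutant 3 or any 1 control and 0.32 with its 2 features averaged, and Skap2 from 0.0703 to 0.158 without mutant 1, mutant 3 or any 1 control. With arrays centred on their medians the adjusted p was 0.0826 for Hibadh and 0.102 for Skap2, with sex as a covariate 0.0532 and 0.0681, and with repeated quantile normalization 0.0537 for Skap2.

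**Figure D5:**
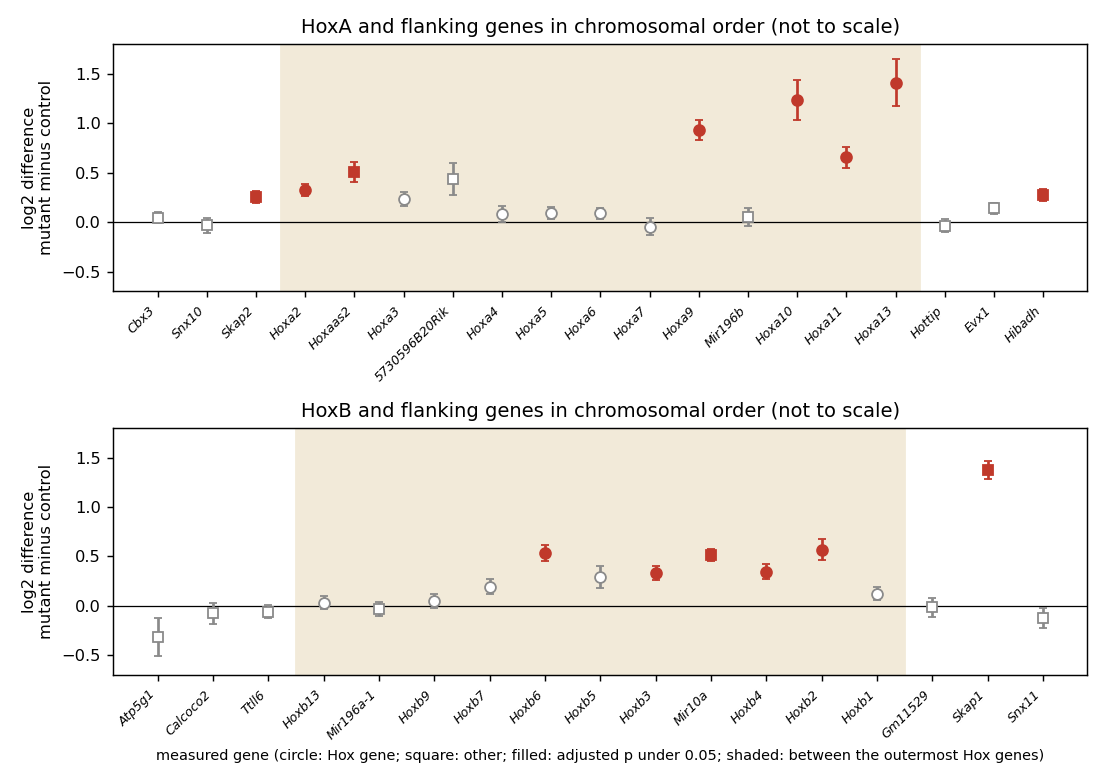
Log2 difference, mutant minus control, of the measured genes in and beside HoxA and HoxB in chromosomal order and not to scale, with bars for the SE (n = 3 arrays per group), circles for Hox genes, squares for others and filled marks for an adjusted p under 0.05. Hoxa9, Hoxa10, Hoxa11 and Hoxa13 stand at 0.66 or more with Mir196b among them at 0.05 and Hottip beside them at -0.04, both dim, and Skap1 stands at 1.37 beyond HoxB.

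The wider Hox machinery was followed in lists of cofactors, chromatin regulators, upstream regulators, cluster neighbours and ParaHox genes, with 75 genes measured in all, of which 10 rose and 1 fell. Over all genes tested 3.84% rose and 3.83% fell, the shares against which each list is to be read. Of 8 TALE cofactors, homeodomain partners of Hox proteins, 1 rose and 0 fell, with a median of 0.13. Meis3 read 7.80, 8.03 and 7.94 in mutants, against 7.61, 7.55 and 7.66 in controls, a difference of 0.31 ± 0.07 (adjusted p = 0.0388). It passed without mutant 1 and had adjusted p from 0.0589 to 0.156 without any other single array. It also missed the threshold with arrays centred on their medians (0.0826), with a variance trend (0.0538) and with sex as a covariate (0.0664).

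Of 30 Polycomb and trithorax genes, whose products hold Hox clusters silent or active, 2 rose and 0 fell, with a median of 0.04. This share is near the 7.66% of all genes that were called in either direction. Psip1, a chromatin reader, rose by 0.47 ± 0.06 (adjusted p = 0.00283), and its mutant values of 10.16, 10.31 and 10.28 lay above its control values of 9.77, 9.79 and 9.78. Rnf2, the ubiquitin ligase of Polycomb complexes, rose by 0.32 ± 0.06 (adjusted p = 0.0172), with adjusted p of 0.089 without control 2, 0.0847 without control 3 and 0.053 with arrays centred on their medians.

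Of 13 upstream regulators, 3 rose and 1 fell, with a median of -0.01. The zinc finger genes Tshz1 (0.66 ± 0.08, adjusted p = 0.00186) and Tshz2 (0.55 ± 0.08, adjusted p = 0.00667) rose. Gdf11, a TGF-beta family ligand needed in mouse for the trunk to tail change of Hox expression, read 8.49, 8.55 and 8.85 in mutants, against 8.18, 8.15 and 8.13 in controls (0.47 ± 0.09, adjusted p = 0.02). Rarb, a retinoic acid receptor, fell by 0.53 (adjusted p = 0.0188), with 8.999, 8.80 and 8.60 in mutants, against 9.41, 9.33 and 9.24 in controls. Without control 1, control 2 and control 3 the adjusted p was 0.072, 0.0818 and 0.0888 for Gdf11 and 0.0852, 0.0766 and 0.0521 for Rarb.

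Of 6 ParaHox genes, relatives of the Hox genes in a cluster of their own and in the Cdx genes, 0 rose and 0 fell in the limma fit, and 0 reached an unadjusted p under 0.05. The smallest p values were those of Pdx1 (-0.10, adjusted p = 0.407) and Cdx2 (-0.08, adjusted p = 0.672), both dim. Of 21 neighbours and non-coding genes of the clusters, the 4 that rose were Skap1, Mir10a, Hibadh and Skap2, and 0 fell.

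Markers of the tissues in the sample were read on the same arrays, where 3.84% of all genes tested were higher and 3.83% lower. The mean log2 value of 14 lung epithelial markers was 8.80 to 8.89 in mutants and 10.09 to 10.12 in controls, with 9 lower and 0 higher, and that of 14 lung mesenchymal markers 10.29 to 10.33 in mutants and 10.21 to 10.27 in controls, with 3 higher and 1 lower. Markers of kidney and urogenital mesoderm, where posterior Hox genes are active, were higher in 4 of 8 and lower in 0 (Gata3, Pax8, Sall1 and Pax2), with a mean of 7.70 to 7.77 in mutants and 7.08 to 7.21 in controls, while the urogenital genes Lhx1 (-0.01), Wt1 (0.05), Osr1 (0.21) and Six2 (0.26) did not pass. Of 9 limb and body wall markers, Prrx1 was higher and 0 lower, with a mean of 6.74 to 6.92 in mutants and 6.54 to 6.66 in controls and with Shox2 and Tbx15 in the range of silent genes. Of 8 smooth muscle markers, 1 was higher and 6 lower, with a mean of 8.15 to 8.72 in mutants and 9.58 to 9.67 in controls. Heart muscle markers had a mean of 6.80 to 8.18 in mutants and 7.17 to 7.20 in controls, with a median of 0.59 above the control means in mutant 1 and -0.18 in mutants 2 and 3, and limma called 0 of 13, with 0 at an unadjusted p under 0.05. Of 8 macrophage and leukocyte markers, 2 were higher and 0 lower, with a mean of 7.78 to 8.05 in mutants and 7.59 to 7.77 in controls. These were Adgre1 (0.49 ± 0.10, adjusted p = 0.0209) and Csf1r (0.43 ± 0.09, adjusted p = 0.0208), chosen after their values were seen, and Csf1r missed the threshold without control 1 (0.0922) or control 2 (0.0954) and Adgre1 without mutant 3 (0.0701), control 1 (0.0823), control 2 (0.0937) or control 3 (0.0515). Of 6 red cell markers 3 were lower, with a mean of 8.65 to 8.80 in mutants and 9.05 to 9.52 in controls, and of 10 cartilage markers 4 were lower, with a mean of 6.71 to 6.89 in mutants and 7.34 to 7.41 in controls.

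Without mutant 1, 7 Hox genes rose, and with the heart muscle markers (their median on each array) as a covariate 9 rose, with the 4 posterior HoxA genes among them each time. In the fit with that covariate Hoxa13 was at 1.52 (adjusted p = 0.000236). The part of heart muscle or of any other tissue in the Hox values was not tested.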

How the data were processed

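Lung RNA of 3 mutant and 3 control embryos was measured on single-colour Affymetrix arrays. The authors deposited log2 values. Oligo, RMA and limma are named per the submitters' processing notes, without versions or settings, and the genome build is not given in the sources used here. Of 35556 features, 21797 carried 1 gene symbol and gave 19946 genes, each by its brightest feature. Symbols came from the platform annotation and matched RefSeq GRCm38.p6 by Entrez identifier for 21698 features. Mutants were compared with controls by limma 3.58.1 in R 4.3.3 (lmFit, eBayes, genotype only, two-sided), with 7.96 moderated degrees of freedom, and the fit was tested on simulated data. The arrays carry no detection calls, so their number limits the precision.

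The members, gene lists, tests and alternatives were chosen with earlier results of these data known. Values on each array are given for Hox genes that passed and for paralogue group 5. In each list of the Hox system, up to 4 members that passed, or the 2 with the smallest p, are named. Some of these are given by array and others by their difference only. The planned comparison of Hox proteins was not made. The retinoic acid response element was searched on both strands as an exact direct repeat of AGGTCA with 5 bases between. It was found in 0 Hox windows and 0.0091% of all windows, so rarely that its absence from the Hox windows says little.

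Alternatives were repeated quantile normalization, centring on array medians, leaving out the dimmest of 3 equal level classes of genes, testing all features with 1 symbol, averaging features, a variance trend with robust moderation, array weights (statmod 1.5.0), replicate number as a block term, the sex of the embryo or the heart muscle list as a covariate, each array left out, an adjusted p under 0.1 and a fold of at least 1.5. Testing all features of the table was added after seeing the data.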

Additional observations from a re-analysis of the deposited data

Results flagged for a closer look

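A feature outside the members carries the symbols of both Hoxb8 and Hoxb7 and was taken up for those symbols. Its mutant values all lay above its control values, as was so for 13.4% of all genes tested. The feature read 8.30, 7.75 and 7.94 in mutants, against 7.55, 7.46 and 7.48 in controls. The log2 difference was 0.50 ± 0.14 (limma adjusted p = 0.144 over all 35556 features). It did not pass the threshold, and the feature of Hoxb7 alone was at 0.19.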

How the results depend on the processing

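The 12 Hox genes given by array kept their direction in all 202 refits that could be made, of which 177 also kept their side of the threshold and 25 missed it. Hoxa9, Hoxa10, Hoxa11 and Hoxb6 passed in each refit that tested them. The number of Hox genes called, 9, was 4 to 9 with single arrays left out, 5 when all features of the table were tested and 4 with a fold of at least 1.5 required (the posterior HoxA genes). The number in the Hox system lists, 11, was 5 to 11 with single arrays left out, 7 with arrays centred on their medians, 7 with the replicate block (without Meis3, Rnf2, Hibadh and Skap2 each time; adjusted p with the block 0.0822, 0.062, 0.0835 and 0.106 in that order) and 2 with a fold of at least 1.5. The number over all genes, 1528, was 774 to 1745 with single arrays left out and 549 with a fold of at least 1.5. With level classes by the mean over 6 arrays, the Hox genes called numbered 4 in the middle and 1 in the low class. All were higher in mutants, as were 6.03% and 1.23% of all genes of those classes. Deviations of arrays with equal replicate numbers correlated at -0.07, 0.05 and 0.15, and those of unequal numbers at -0.15 to 0.08. So few arrays cannot show whether the numbers mark shared litters or batches. With the replicate block 8 Hox genes rose, all but Hoxb3 (adjusted p = 0.0805). Hoxb3 and Hoxb4 also missed the threshold under repeated quantile normalization (adjusted p 0.0571 and 0.0519), Hoxb3 with sex as a covariate (0.057) and Hoxb4 with arrays centred on their medians (0.0513). Each refit with an array left out had fewer samples, and 7 to 9 Hox genes rose without 1 mutant and 4 to 6 without 1 control. The cause of these changes was not tested for any setting. Dim signal limits what can be said of HoxC and HoxD.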
